A study of Mus musculus with 8 samples.

Results

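The genes that make cholesterol and fatty acids, together with the proteins that sense sterols and set the output of both pathways, were followed in MC38 cells, a murine colon adenocarcinoma line, with and without DENR. The 34 members were taken by gene name from 2 tables of normalized counts, 1 for cells treated with IFNγ and 1 for untreated cells. All 34 were listed in both tables and all had a mean of at least 10, among 20432 genes listed in both. They comprise 19 enzymes of the sterol branch, 6 sensing and transport proteins, 8 enzymes of the fatty acid branch and Lpin1, a phosphatidate phosphatase of glycerolipid synthesis. The 8 samples form 4 groups of 2, since control (wild type) and DENR KO cells were each left untreated or given IFNγ (20 ng/ml) during 4 h. DENR is a translation re-initiation factor, and the KO cells were made by Cas9 and sgRNA delivered with lentivirus. Whether the 2 DENR KO samples came from 2 sgRNAs, from separate lines or from separate cultures of 1 line was not given, so the p-values below measure the spread between these samples, which may be technical.

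Cholesterol is built from acetyl-CoA by way of mevalonate, isoprenoid units, squalene and lanosterol, whereas fatty acids are built from the same acetyl-CoA by carboxylation, chain extension and desaturation. The genes of both branches are targets of the SREBP transcription factors. When sterols in the endoplasmic reticulum are low, SCAP escorts SREBP to the Golgi for cleavage, and when sterols are high, the INSIG proteins hold SCAP back. SREBF2 acts mainly on the sterol genes and SREBF1 mainly on the fatty acid genes.

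Each sample held between 17369020 and 18403790 reads on genes, and no sample stood apart in depth. Denr transcript in DENR KO cells was 67.0% of control with IFNγ and 67.7% of control without it, so the transcript persisted in the KO samples. The treatment check held in both genotypes, since Irf1 and Cd274 were higher with IFNγ by between 3.10 and 5.58 on the log2 scale. Among markers of cell types, the epithelial genes Krt8 and Cdh1 were near the floor (at most 20.6 normalized counts in any sample), whereas the fibroblast genes Col1a2 and Pdgfra were high (means of at least 9746 and 1723 in every group). Endothelial and immune markers were at most 20.1 or had no row. Of the fibroblast markers, Dcn fell in DENR KO cells by 0.47 on the log2 scale with IFNγ (limma adjusted p = 4.2e-05) and by 0.31 without it (limma adjusted p = 0.013), while Col1a1, Col1a2 and Pdgfra differed by at most 0.06 in either direction and were not called. The part of this difference between the samples in the results below was not tested.

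The members were expressed over a wide range. To compare genes, the normalized counts of the 8 samples were put on 1 scale and divided by gene length in kb. On this scale, Scd2, a stearoyl-CoA desaturase that places the first double bond in saturated fatty acids, had the highest mean (3906 per kb, from 3127 to 4989 over the 8 samples). It was followed by Acly, which makes cytosolic acetyl-CoA from citrate (1143 per kb), and Srebf2 (1117 per kb), whose ranges over samples overlapped. The highest sterol enzymes were Cyp51, the lanosterol demethylase (723 per kb), Sqle, the squalene epoxidase (588 per kb), and Hmgcs1, the synthase that makes HMG-CoA (517 per kb). The lowest members were Tm7sf2, a sterol reductase (21.6 per kb), Fdps, the farnesyl diphosphate synthase (24.4 per kb), and Lpin1 (28.9 per kb). The ranges of Tm7sf2 and Fdps overlapped, as did those of Fdps and Lpin1. The length given for Fads2 was 1508 bases, against 3295 bases of its annotated exons in GENCODE M21. Its per-kb level of 723 depends on that length. The lengths given for Fads1 (3456 bases) and Tm7sf2 (5593 bases) also differ from their annotated exons (4812 and 4403 bases). Their per-kb levels, and the place of Tm7sf2 below Fdps, depend on those lengths too.

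**Figure D1:**
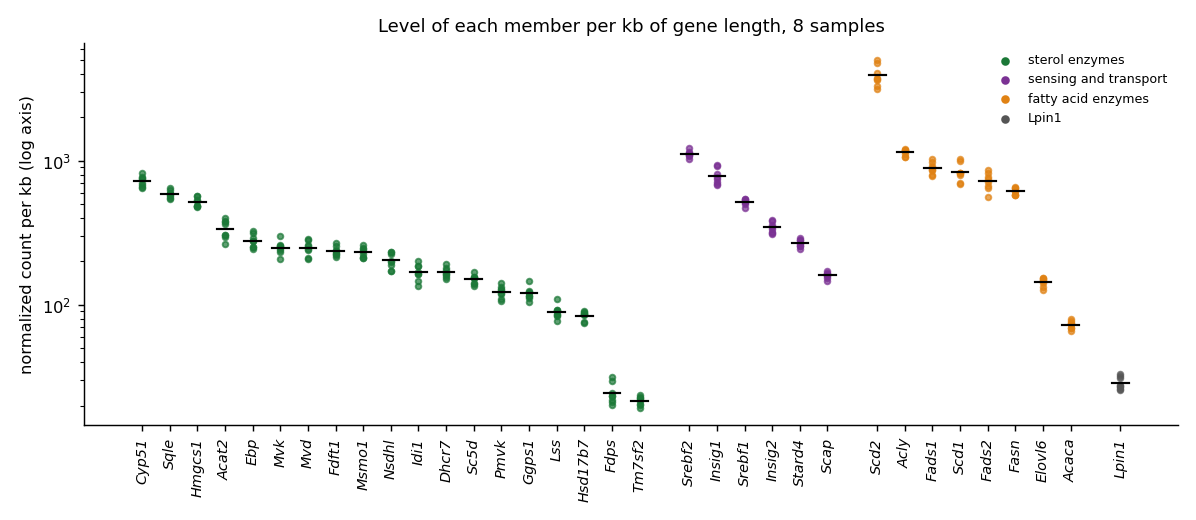
Level of each member as normalized count per kb of gene length on a log axis, with 8 points for the 8 samples and a bar for their mean, grouped by branch. Scd2 stands at 3906 per kb, and Fdps and Tm7sf2 stand at 24.4 and 21.6 per kb.

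Some of these counts rest on sequence that other genes share. Of all stretches of 75 bases in the transcripts of Acat2, 33.9% also occur in Acat3, which had between 3.94 and 14.3 normalized counts, and 26.2% of those of Acaca occur in the pseudogene Gm5182, which had between 218 and 316. Fdps shares 21.9% with Gm43738 and 7.47% with Gm3571, and the latter had between 167 and 242 normalized counts, above Fdps itself. Scd1 and Scd2 share 1.62% and 1.45% of theirs with each other. Exons of 9 members, Cyp51, Fdft1 and Hmgcs1 among them, overlap exons of a gene on the opposite strand. The handling of strand and of reads with several matches was not given, so counts of these members are uncertain to that extent.

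The SREBP proteins bind sterol response elements, and the promoters they act on often also hold a CCAAT box, bound by NF-Y. To show what the members share besides their function, the 250 bases before the start of transcription were read from RefSeq. This was done for the 27 members with an entry (build GRCm38.p6), and short motifs were counted on both strands. Fdps, Fdft1, Sqle, Stard4, Scd1, Scd2 and Fads1 had no entry and were not searched. TCACNCCA, the core of a sterol response element, was found in 3 of 27 members (Hmgcs1, Msmo1 and Srebf2), against 4.20% of 27025 genes. CCAAT was found in 20 of 27 members, against 37.5% of those genes. By branch, it was found in 15 of 16 sterol enzymes, in 4 of 5 sensing and transport genes and in 1 of 5 fatty acid enzymes, Fasn. GGGCGG, the GC box bound by Sp1, was found in 21 of 27 members, against 35.4% of those genes. This motif was found in 14 of 16 sterol enzymes, in 5 of 5 sensing and transport genes and in 2 of 5 fatty acid enzymes. Some of the matches counted lay in windows of 30 bases that overlapped annotated exons of the gene in GENCODE M21. Among them were the TCACNCCA match of Msmo1 and all CCAAT matches of Cyp51, Dhcr7, Idi1, Msmo1 and Tm7sf2. The matches are a description of these windows and not of binding, and the motifs were chosen after counts of several had been seen. The windows of 30 bases below show the match in capitals, written 5′ to 3′ on the strand of the gene. ATTGG is the reverse complement of CCAAT. The first pair shows the sterol element in an early enzyme of the pathway and in its main regulator. The others show the CCAAT box in 4 genes of the sterol side and in Fasn. Of the 5 fatty acid enzymes searched, Fasn alone had a match to CCAAT.
Hmgcs1, chr13:119690203-119690232, plus strand: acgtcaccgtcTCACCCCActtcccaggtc
Srebf2, chr15:82147096-82147125, plus strand: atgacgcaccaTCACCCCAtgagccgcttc
Hmgcs1, chr13:119690163-119690192, plus strand: cgccgtcccgccATTGGcaggcttgttctc
Nsdhl, chrX:72918400-72918429, plus strand: agcccgcttcccATTGGtttgggaacgaag
Insig1, chr5:28071184-28071213, plus strand: cgccctcctcccATTGGctccggcggcctc
Mvd, chr8:122443465-122443494, minus strand: ggcctgtcgcctATTGGacagcacgggaaa
Fasn, chr11:120824620-120824649, minus strand: ccgcgcgccgccATTGGgccaccgagaacg

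The first question was whether loss of DENR altered these transcripts in cells treated with IFNγ. In DENR KO cells, 4 of 34 members fell and none rose, at a limma adjusted p under 0.05 over all 13928 genes tested. They were Acat2 and Cyp51 of the sterol branch and the desaturases Scd1 and Scd2 of the fatty acid branch. Of all genes tested, 2.25% fell and 1.80% rose. No member fell or rose by more than 0.5 on the log2 scale, a rule that 1.54% of all genes met. The other members had small differences of mostly the same sign, as 31 of 34 members had lower values in DENR KO cells, against 50.1% of all genes. The median over members was −0.12, where that over all genes was 0.00.

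Without IFNγ the picture was alike. In DENR KO cells 3 of 34 members fell, Acat2, Scd1 and Scd2, where 0.150% of all genes fell and 0.429% rose. No member rose or passed the log2 difference of 0.5, a rule that 0.214% of all genes met. Lower values were seen for 30 of 34 members, against 49.5% of all genes, and the median over members was −0.16. No sample is shared between the 2 comparisons, though whether both used the same control and KO lines was not given. In both treatments, 28 of 34 members (82.4%) were lower in DENR KO cells, where 29.9% of the 13642 genes tested in both were. Leaving out 1 library at a time moved the count of lower members to between 26 and 34 with IFNγ, with the fewest without control replicate 1, and to between 27 and 30 untreated, with the fewest without control replicate 1.

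**Figure D2:**
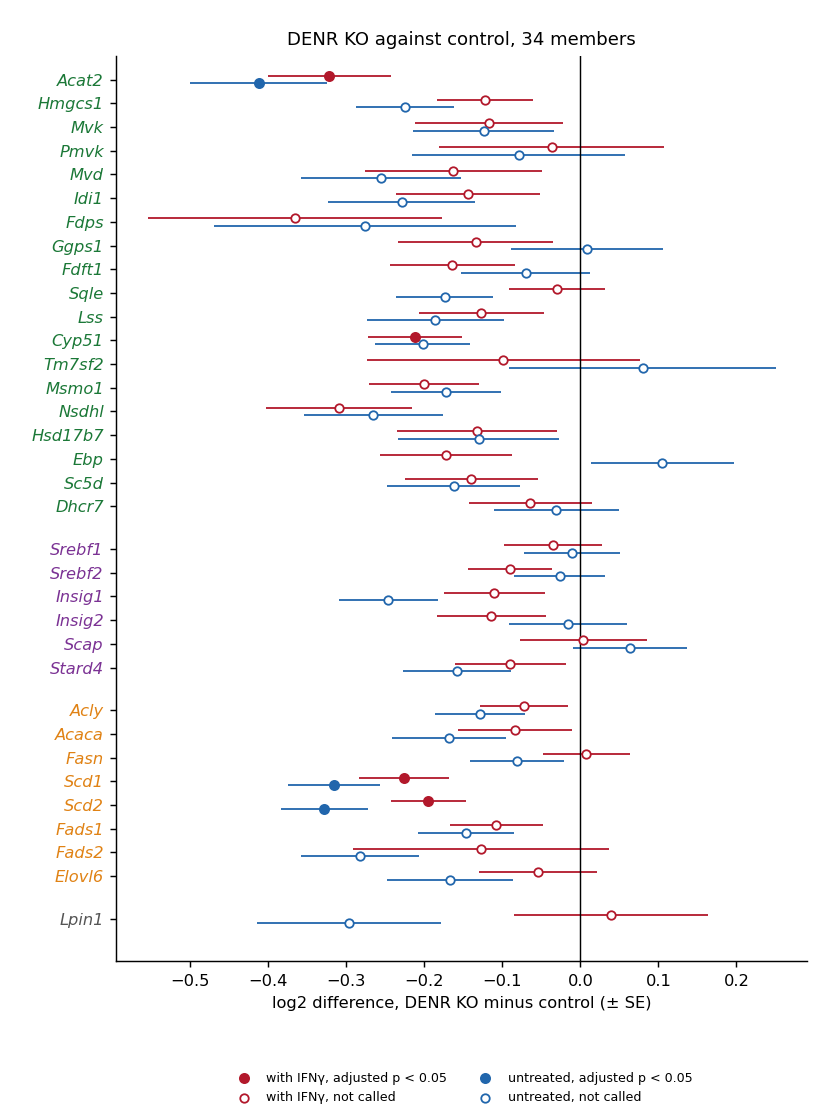
Difference between DENR KO and control on the log2 scale with its standard error, for each member with IFNγ (red) and untreated (blue), filled where the limma adjusted p was under 0.05. Acat2, Scd1 and Scd2 are filled in both colours, Cyp51 is filled with IFNγ only, and most of the open points lie to the left of 0.

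Acat2 is the cytosolic thiolase that joins 2 molecules of acetyl-CoA at the head of the sterol branch (chr17:12942890-12960747, minus strand, GRCm38). With IFNγ, the control samples held 939.6 and 927 normalized counts, against 736 and 757 for DENR KO. It fell by 0.32 ± 0.08 on the log2 scale (SE, limma adjusted p = 0.016). Untreated, the control samples held 1048 and 942, against 799.5 and 697 for DENR KO, and Acat2 fell by 0.41 ± 0.09 (SE, limma adjusted p = 0.017). In each treatment both DENR KO samples lay below both controls.

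Hmgcs1, which carries the product of Acat2 on to HMG-CoA (chr13:119690379-119708260, plus strand), had 2372 and 2353 normalized counts in control, against 2159 and 2183 in DENR KO cells with IFNγ. Untreated, it had 2680.3 and 2697 in control and 2296 and 2305 in DENR KO cells. DENR KO samples were below both controls in each treatment, and the differences of −0.12 and −0.22 did not pass the test (limma adjusted p = 0.40 and 0.12). The kinases and the decarboxylase that follow, Mvk, Pmvk and Mvd, had DENR KO means of between 83.8% and 97.5% of control over both treatments, none of them called.

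Of the enzymes that make and join isoprenoid units, Fdps had the lowest difference of any member with IFNγ, and it did not pass the test. Its normalized counts were 129 and 101 in control and 89.6 and 86.9 in DENR KO cells (−0.37 ± 0.19, limma adjusted p = 0.42). At about 100 reads, its standard error was the largest among the members. Ggps1, which makes geranylgeranyl diphosphate, had 552 and 671 normalized counts in control, against 533 and 576 in DENR KO cells with IFNγ, and 508 and 592 against 560.2 and 543 untreated. Its groups overlapped in both treatments. Idi1, the isopentenyl diphosphate isomerase, was not called either (−0.14 with IFNγ, −0.23 untreated). Fdft1, the squalene synthase, had −0.16 with IFNγ and −0.07 untreated, and neither was called. Sqle, the next enzyme, had 3211 and 3068 normalized counts in control, against 3199 and 2954 in DENR KO cells with IFNγ (−0.03), with overlap. Untreated, it had 3709.5 and 3569.8 against 3124 and 3330.1 (−0.17), without overlap, and it was not called.

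Cyp51, which removes the first methyl group from lanosterol on the way to cholesterol (chr5:4081145-4104746, minus strand), fell with IFNγ. It had 3546 and 3336 normalized counts in control, against 3020.2 and 2920.3 in DENR KO cells (−0.21 ± 0.06, limma adjusted p = 0.048). Untreated, it had 3386 and 3432 in control and 2927 and 2999.9 in DENR KO cells (−0.20 ± 0.06, limma adjusted p = 0.18). DENR KO samples were below both controls each time, the size was nearly the same, and the call was made in 1 treatment only. Msmo1 and Nsdhl, which act together in removing the other methyl groups, had values of the same sign. Nsdhl had 563 and 628 normalized counts in control, against 479 and 479.6 in DENR KO cells with IFNγ (−0.31 ± 0.09, limma adjusted p = 0.069), and 686 and 679.7 against 558 and 578 untreated (−0.27 ± 0.09, limma adjusted p = 0.27). Msmo1 had 1478 and 1552 in control against 1273 and 1363 with IFNγ (−0.20), and 1494 and 1533 against 1355 and 1331 untreated (−0.17), and was not called.

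Ebp, the isomerase that moves the double bond of the sterol ring, was 1 of 3 sterol enzymes with a higher value untreated, beside Tm7sf2 (0.08) and Ggps1 (0.01). With IFNγ it had 733 and 709 normalized counts in control, against 626 and 653 in DENR KO cells (−0.17 ± 0.08, limma adjusted p = 0.39). Untreated, it had 596 and 579.7 in control and 665 and 600.4 in DENR KO cells (0.10 ± 0.09, limma adjusted p = 0.78). DENR KO samples thus lay below both controls with IFNγ and above both untreated, and neither difference passed the test. Tm7sf2 had 118 and 129 in control against 132 and 128 for DENR KO untreated, and 129 and 109.7 against 105 and 117 with IFNγ, with overlap in both. The remaining sterol enzymes, Lss, Hsd17b7, Sc5d and Dhcr7, had differences of between −0.19 and −0.03 over both treatments, and none was called. In all, DENR KO samples lay below both controls for 11 of 19 sterol enzymes with IFNγ, where 20.8% of all genes did, and for 10 of 19 untreated, where 19.6% of all genes did. Ebp was the only sterol enzyme above both controls untreated, as 20.4% of all genes were, and with IFNγ no member lay above both, where 21.1% of all genes did.

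None of the 6 sensing and transport members passed the test in either treatment. Insig1, a classical SREBP target whose protein holds SCAP back, came nearest. It had 2914 and 2951 normalized counts in control, against 2381 and 2568 in DENR KO cells untreated (−0.25 ± 0.06, limma adjusted p = 0.077), and 2330.0 and 2146 against 2077 and 2066 with IFNγ (−0.11 ± 0.06, limma adjusted p = 0.50). Its homologue Insig2 had −0.11 with IFNγ and −0.02 untreated. Srebf1 and Srebf2, which encode the transcription factors themselves, had differences of between −0.09 and −0.01. Srebf2 had 8581 and 8091 in control against 8010.5 and 7649 with IFNγ, without overlap, and 8212 and 7904 against 7635 and 8194 untreated, with overlap. Scap had 1250.1 and 1054 normalized counts in control, against 1188 and 1115 in DENR KO cells with IFNγ (0.00 ± 0.08), and 1226 and 1201 against 1256 and 1281 untreated (0.06 ± 0.07). Stard4, a carrier of cholesterol between membranes, had −0.09 and −0.16. The levels of the SREBP transcripts give no measure of their cleavage.

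In the fatty acid branch the calls fell on the desaturases. Scd1 and Scd2 both lie on chromosome 19 (chr19:44394451-44407709, minus strand, and chr19:44293676-44306864, plus strand). With IFNγ, Scd1 had 3842 and 3850.0 normalized counts in control, against 3304 and 3273 in DENR KO cells, and fell by 0.23 ± 0.06 on the log2 scale (limma adjusted p = 0.022). Untreated, it had 4969 and 5067 in control and 3985 and 4075 in DENR KO cells, and fell by 0.32 ± 0.06 (limma adjusted p = 0.0054). Within each treatment the spread between replicates was small beside the gap between the genotypes.

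Scd2, the most abundant member, had 19900.5 and 19287 normalized counts in control, against 17544 and 16692 in DENR KO cells with IFNγ, and fell by 0.20 ± 0.05 (limma adjusted p = 0.018). Untreated, it had 26519 and 27890.0 in control and 20698 and 22671 in DENR KO cells, and fell by 0.33 ± 0.06 (limma adjusted p = 0.0021). It thus stood in DENR KO cells at 87.4% of control with IFNγ and at 79.7% untreated.

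Fads2 and Fads1, the desaturases of polyunsaturated fatty acids, were lower without being called. Fads2 had 1343 and 1266 normalized counts in control, against 1041 and 1104 in DENR KO cells untreated (−0.28 ± 0.08, limma adjusted p = 0.092). With IFNγ it had 1132 and 947 against 1093 and 822, where the groups overlapped. Fads1 had −0.11 with IFNγ and −0.15 untreated. Of the enzymes that supply and extend the chain, none was called. Fasn, the fatty acid synthase, had 6561 and 6199 in control and 6609 and 6217 in DENR KO cells with IFNγ (0.01 ± 0.06), and 7254 and 7321 against 6541 and 7257 untreated (−0.08 ± 0.06). Acly, Acaca, the acetyl-CoA carboxylase, and Elovl6, an elongase, had between −0.17 and −0.05.

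Lpin1 had 331 and 320.4 normalized counts in control, against 261 and 269 in DENR KO cells untreated (−0.30 ± 0.12, limma adjusted p = 0.40). With IFNγ it had 263 and 257 against 292 and 244 (0.04 ± 0.12), with overlap. It was the only member outside the enzymes and sensors of the 2 branches, and it passed the test in neither treatment.

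The calls rest on 2 samples a group. When 1 library was left out, the lone sample left in its group was assumed to vary like the others. No member kept its call in every such fit, in either treatment. With IFNγ, the log2 difference then ran from −0.34 to −0.30 for Acat2 and from −0.26 to −0.17 for Cyp51. It ran from −0.23 to −0.22 for Scd1 and from −0.23 to −0.16 for Scd2. Untreated, it ran from −0.51 to −0.31 for Acat2, from −0.33 to −0.30 for Scd1 and from −0.39 to −0.26 for Scd2. DESeq2 on the recovered reads called Scd1 and Scd2 in both treatments and Acat2 and Cyp51 in neither.

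**Figure D3:**
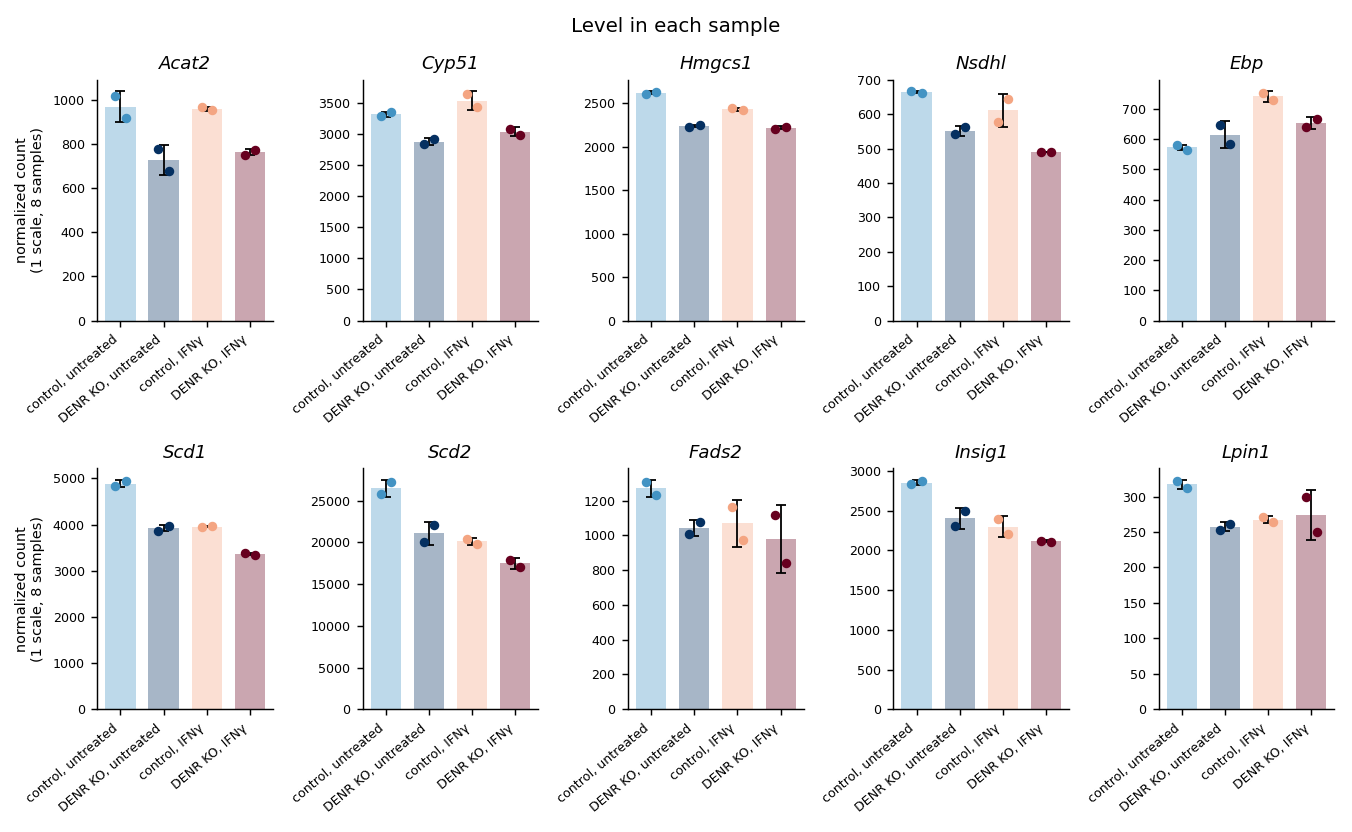
Normalized counts of 10 members in the 8 samples on 1 scale, with points for samples, bars for the mean of each group and error bars for the SD (n = 2). For Scd1 and Scd2, the untreated control samples are the highest (4829 and 4943, and 25769 and 27206) and the DENR KO samples with IFNγ are the lowest (3377 and 3344, and 17932 and 17054).

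Whether the effect of DENR KO depended on IFNγ was tested as the difference of the 2 effects over all 8 samples, which is also the difference of the IFNγ response between the genotypes. No member passed (limma, smallest adjusted p = 0.76), where 0.450% of 13998 genes did. DESeq2 and edgeR on the recovered reads called none either, and at an unadjusted p under 0.05 the limma test picked out Ebp alone of the members. Ebp had the lowest difference, its effect being lower with IFNγ by 0.28 ± 0.12, followed by Tm7sf2 (−0.18) and Ggps1 (−0.14). Lpin1 had the highest, its effect being higher with IFNγ by 0.34 ± 0.17 (limma adjusted p = 0.89), followed by Fads2 (0.16) and Sqle (0.14). For all 8 fatty acid enzymes the difference of the effects was positive, at between 0.04 and 0.16. It was negative for 10 of 19 sterol enzymes, where 49.7% of all genes were. None of these differences exceeded its error by enough to pass the test.

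The response to IFNγ itself is given as a description without a test, because the 2 tables were normalized separately by the authors. For this purpose all 8 samples were put on 1 scale by the reads recovered from the tables. No member was higher or lower by more than 0.5 on the log2 scale without overlap of the samples in either genotype, where 12.1% of genes in control cells and 9.19% in DENR KO cells were. The sterol enzymes were near 0 as a group, with a median of 0.03 in control and 0.01 in DENR KO cells. With TMM scaling these were 0.03 and 0.01. Both turned negative with scaling by total reads (−0.04 and −0.03) and with the values as deposited (−0.05 and −0.06). The fatty acid enzymes had a median of −0.17 in control and −0.07 in DENR KO cells, negative under each of the 3 other scalings tried. The median of all genes moved by at most 0.08 between scalings. It was −0.07 in control and −0.05 in DENR KO cells with scaling by total reads, and −0.08 in both as deposited.

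Scd2 had the lowest ratio of any member in both genotypes. On the common scale, Scd2 had 25769 and 27206 counts in untreated control cells and 20457 and 19825 with IFNγ (−0.39), and 20098 and 22057 against 17932 and 17054 in DENR KO cells (−0.27). Scd1 had 4829 and 4943 untreated and 3949.9 and 3957 with IFNγ in control cells (−0.31), and 3869.6 and 3965 against 3377 and 3344 in DENR KO cells (−0.22). For both genes the IFNγ samples lay below the untreated samples in each genotype, and the untreated DENR KO samples were close to the control samples with IFNγ.

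Fads1 had −0.22 in control and −0.19 in DENR KO cells, without overlap in either, and Fads2 had −0.25 without overlap in control and −0.10 with overlap in DENR KO cells. Fasn had −0.11 and −0.03, Acly −0.02 and 0.03, and Acaca 0.01 and 0.09. Elovl6 went the other way, with 0.07 in control and 0.18 in DENR KO cells, where it had 819 and 859 counts untreated and 958 and 938 with IFNγ, although its ratio in control cells changed sign with the values as deposited. In control cells, 6 of 8 fatty acid enzymes were lower without overlap, where 26.3% of genes were, and in DENR KO cells 3 of 8 were, where 25.3% of genes were.

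**Figure D4:**
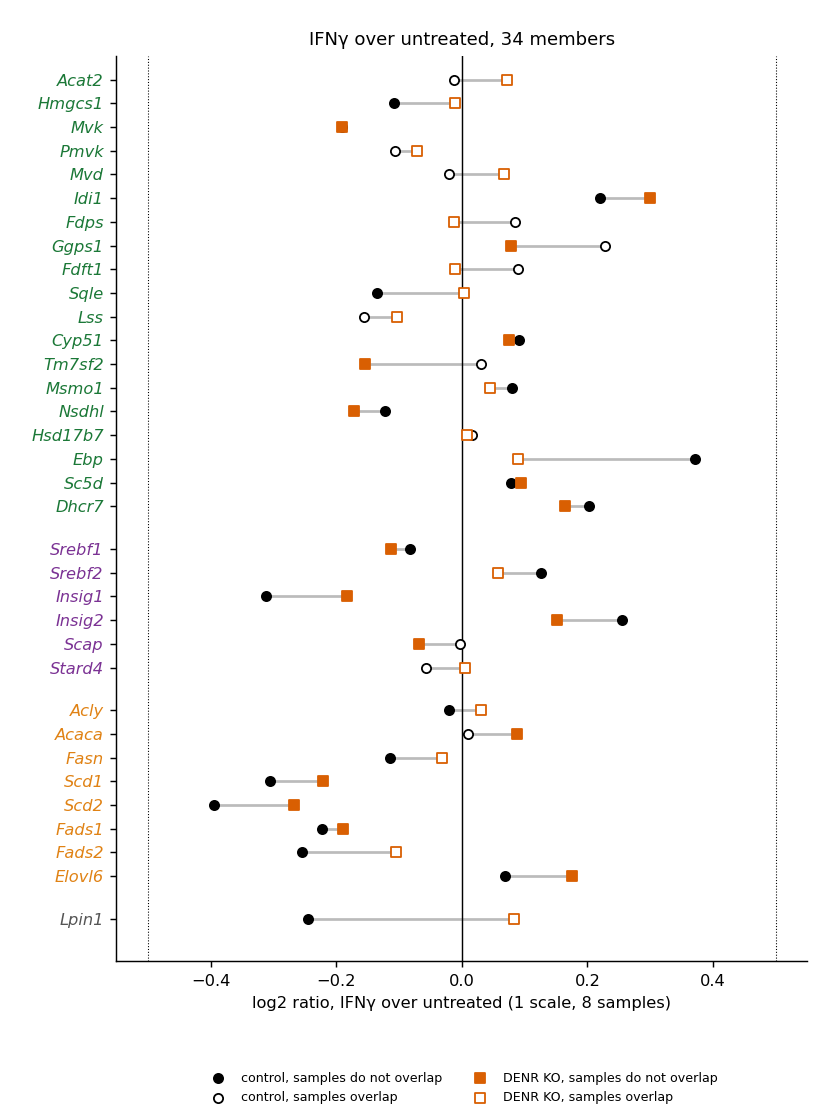
Ratio of IFNγ-treated to untreated cells on the log2 scale for each member, in control cells (black circles) and DENR KO cells (orange squares), filled where the samples of the 2 treatments do not overlap, with dotted lines at 0.5 in either direction. Scd2, Scd1 and Insig1 lie farthest to the left in control cells (−0.39, −0.31 and −0.31) and Ebp farthest to the right (0.37).

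Among sterol genes the ratios were of both signs. Ebp had the highest of any member in control cells, with 579 and 565 counts untreated and 753 and 729 with IFNγ (0.37), and had 646 and 584 against 639.7 and 668 in DENR KO cells (0.09), with overlap. Idi1 had 571 and 595 untreated and 655 and 705 with IFNγ in control cells (0.22), and 477 and 516 against 571 and 654 in DENR KO cells (0.30). Dhcr7, which catalyses the last step to cholesterol, had 950.3 and 903 against 1119.7 and 1016 in control cells (0.20) and 876 and 935 against 1055 and 975 in DENR KO cells (0.16). Ggps1 had 494 and 577 against 568 and 689 in control cells (0.23), with overlap, and 0.08 in DENR KO cells.

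Mvk had 803 and 687 counts untreated and 684 and 619 with IFNγ in control cells (−0.19), and 695 and 665 against 642 and 554 in DENR KO cells (−0.19). In control cells 6 of 19 sterol enzymes were higher without overlap, where 25.5% of genes were, and 4 were lower, where 26.3% of genes were. Among DENR KO samples 5 were higher, where 24.5% of genes were, and 3 were lower, where 25.3% of genes were. The shares of higher enzymes are near those of all genes.

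The 2 INSIG genes had ratios of opposite sign. Insig1 had 2831 and 2879 counts untreated and 2395 and 2206 with IFNγ in control cells (−0.31), and 2312 and 2498 against 2123 and 2111 in DENR KO cells (−0.18). Insig2, whose transcription is known to be less dependent on SREBP, had 1082 and 1159 against 1341 and 1334 in control cells (0.26), and 1114 and 1098 against 1243 and 1213 in DENR KO cells (0.15). Neither gene had overlapping samples in either genotype, and both kept their sign under every scaling tried. Srebf1 had −0.08 and −0.11, Srebf2 0.13 and 0.06, and Scap 0.00 and −0.07. Lpin1 had 322 and 313 untreated and 271 and 264 with IFNγ in control cells (−0.25), and 253 and 262 against 299 and 249 in DENR KO cells (0.08). Under at least 1 other scaling, 4 members in control cells and 7 in DENR KO cells changed sign, each with a ratio of at most 0.07 in size.

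The sterol branch was then set beside the fatty acid branch. In DENR KO against control cells with IFNγ, the median difference was −0.14 for the 19 sterol enzymes and −0.10 for the 8 fatty acid enzymes. Called lower were 2 of 19 and 2 of 8, where 2.25% of all genes were. Untreated, both medians were −0.17, and 1 of 19 and 2 of 8 were called lower, where 0.150% of all genes were. Each library was also given a score per branch, the median over its enzymes of the log2 deviation from the mean of the 8 samples. With IFNγ, the sterol score minus the fatty acid score was 0.11 and 0.09 in control samples and −0.04 and 0.04 in DENR KO samples, without overlap. Untreated, it was 0.01 and −0.10 in control samples and −0.01 and −0.05 in DENR KO samples, with overlap. The SD of this score difference between samples of a group was 0.05, pooled over the 4 groups. With IFNγ the gap between genotypes was thus larger by library score than by the medians of the differences, and it was not tested. In the response to IFNγ, the sterol median exceeded the fatty acid median by 0.20 in control cells, and by between 0.13 and 0.23 when 1 library was left out. In DENR KO cells the gap was 0.08, and it ran from −0.0044 without DENR KO IFNγ replicate 2 to 0.18 without DENR KO IFNγ replicate 1. The branches share samples and were not tested against each other.

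**Figure D5:**
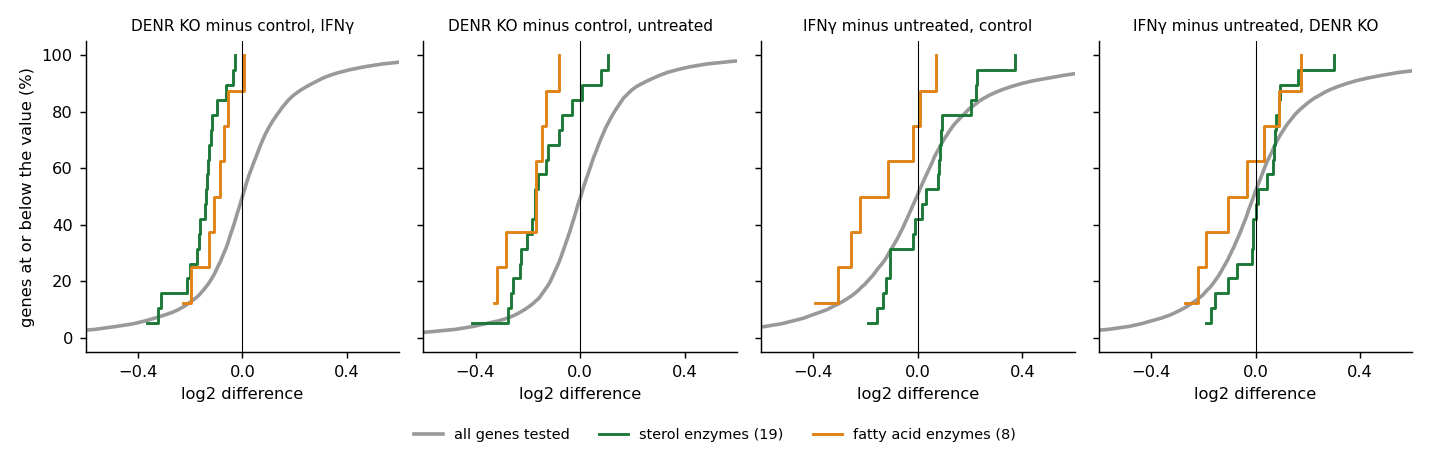
Share of genes at or below each log2 difference, for the 19 sterol enzymes (green), the 8 fatty acid enzymes (orange) and all genes tested (grey), in the 4 comparisons. In both comparisons of DENR KO with control the 2 branches lie left of all genes, with medians of −0.14 and −0.10 with IFNγ and of −0.17 untreated, and in the IFNγ ratio of control cells they part, with medians of 0.03 and −0.17.

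Other genes of lipid metabolism were read from lists of related functions. Of 22 further genes of fatty acid and glycerolipid synthesis, 2 fell in DENR KO cells with IFNγ, where 2.25% of all genes did, and none untreated, where 0.150% did. They were Acsl1, which activates long-chain fatty acids (838 and 802 normalized counts in control, against 585 and 696 in DENR KO cells, −0.36 ± 0.09, limma adjusted p = 0.021), and Lpin2, a homologue of Lpin1 (1342 and 1341 against 1119.9 and 1115, −0.26 ± 0.07, limma adjusted p = 0.032). The list as a whole had 12 of 22 genes lower with IFNγ and 11 of 22 untreated, near the share of all genes. On the common scale, Lpin2 and Acsl5, another acyl-CoA synthetase, were higher with IFNγ in control cells by 0.77 and 0.60, and in DENR KO cells by 0.45 and 0.35. Beyond 0.5 without overlap were these 2 of 22 genes in control cells, where 12.1% of all genes were. No gene of the list was in DENR KO cells, where 9.19% of all genes were.

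In the list of oxysterol sensing and efflux, 1 of 7 genes tested fell untreated, where 0.150% of all genes did, and none with IFNγ, where 2.25% did. It was Abca1, the transporter that exports cholesterol to apolipoproteins and is induced by the LXR receptors. It had 259.6 and 254 normalized counts in control, against 164 and 145 in DENR KO cells (−0.73 ± 0.14, limma adjusted p = 0.0079), and 95.3 and 91.6 against 62.0 and 83.0 with IFNγ (−0.38 ± 0.21, limma adjusted p = 0.46). On the common scale its level was also lower with IFNγ, from 252 and 248 to 98.0 and 94.2 in control cells (−1.37), and from 159 and 141 to 63.4 and 84.8 in DENR KO cells (−1.02). Cyp7b1, an oxysterol hydroxylase, had 29.3 and 30.9 untreated and 88.5 and 77.6 with IFNγ in control cells (1.43), and 0.94 in DENR KO cells. Abcg1, a second exporter, had a ratio of 1.34 in control and 0.60 in DENR KO cells at under 23 counts, and Cyp27a1 had −0.80 in DENR KO cells at under 19 counts. Of the 8 genes of this list measured on the common scale, 3 in control and 4 in DENR KO cells were beyond 0.5 without overlap. Of all genes, 12.1% and 9.19% were.

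None of the 7 genes that process SREBP or signal sterol-driven degradation, of 13 genes measured for uptake, trafficking and storage, or of 7 genes of the prenyl branch was called in either treatment. Of all genes, 2.25% fell and 1.80% rose with IFNγ, and 0.150% fell and 0.429% rose untreated. Lower values in DENR KO cells with IFNγ were seen for 3 of 7, 4 of 13 and 5 of 7 genes of these lists, against 50.1% of all genes. Untreated, they were seen for 6 of 7, 5 of 13 and 6 of 7, against 49.5% of all genes.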

How the data were processed

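The authors deposited, for each of 2 treatments, a table with a normalized signal per gene and sample, made by dividing reads by a factor per sample and called a normalized count here. The submitters' processing notes name HISAT2 2.0.5, StringTie 1.3.3b, featureCounts 1.5.0-p3, DESeq2 1.20.0 and build mm9, whereas coordinates in the files were those of GRCm38 (GENCODE M21) for 20698 of 21739 genes with a shared ID and for 29 of 34 members, so GRCm38 is used. The deposited fold changes, p-values and group means were not used.

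Reads on genes were recovered as whole multiples of 1 step per sample, which held for 100% of the values within 4.46e-05 of a whole number, and came to between 17369020 and 18403790. Counting error limits members with few reads, such as Fdps and Tm7sf2. The spread between 2 samples limits the others.

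The tests had been planned for the deposited values: limma 3.58.1 (R 4.3.3) with trend and robust moderation of log2(value + 1), for genes whose mean reached 10, with Benjamini-Hochberg adjustment over all genes tested (13928 with IFNγ, 13998 untreated, 13998 for the difference of effects). A gene was called at an adjusted p under 0.05. Fold changes on this scale understate those of low genes. Levels across the tables used recovered reads with median-of-ratios size factors over 8 samples. The scripts were tested on simulated data. Alternatives were edgeR 4.0.16 and DESeq2 1.42.0 on recovered reads, other pseudocounts, filters and scalings, a replicate block, and leaving out each library.

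The members, lists and tests were chosen with earlier results of these data known. Every member is named or counted. Values per sample are given for members called in any fit, for the 3 highest and 3 lowest of each comparison, and for some others. Of the other lists, genes called or with an IFNγ ratio beyond 0.5 without overlap are named, at most 4 a list. Ch25h was not analysed here.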

Additional observations from a re-analysis of the deposited data

How the results depend on the processing

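Acat2, Scd1 and Scd2 kept their direction in both treatments under every alternative tried, and so did Cyp51. The count of members called was 0 in both treatments when a log2 difference beyond 0.5 was required, and with IFNγ it was 2 with DESeq2. With pseudocounts of 0.5 and 5, a minimum mean of 50, no filter, edgeR, TMM scaling, centring on the median or all 8 samples in 1 fit, it was 3 or 4. When each library was left out in turn, the lone sample left in its group was assumed to vary like the others. No member then kept its call in every fit, in either treatment. Over all genes, 565 were called with IFNγ (375 with DESeq2) and 81 untreated (51 with DESeq2, 35 without control replicate 2). For the difference of the effects, 63 were called, and between 37 (without control IFNγ replicate 2) and 93 with 1 library left out, none of them a member.

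Over all 13998 genes, samples with the same replicate number deviated together only weakly, if at all (correlations from −0.01 to 0.08), and the numbers were not taken as pairs. The highest value, 0.08, was that of control and DENR KO samples with IFNγ. In that treatment the replicates differed in the same direction in both genotypes for most members, Fads2 and Mvd among them. For the others, such as Hmgcs1, the directions were opposite. Untreated, neither case was in the majority. A replicate effect shared by the members was not tested. With a replicate block, 7 members were called with IFNγ (1455 of all genes), Msmo1, Nsdhl and Srebf2 being added. Untreated, 7 were called (257 of all genes), Cyp51, Fads2, Hmgcs1 and Insig1 being added. The block takes a further coefficient from a fit of 4 samples, so these added calls rest on very little residual information. For the difference of the effects, 102 genes and no member were called with the block.

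The median IFNγ ratio of the sterol enzymes in control cells was −0.0353 with scaling by total reads and −0.0473 as deposited, and from −0.0216 (without control IFNγ replicate 1) to 0.0884 (without control IFNγ replicate 2) with 1 library left out. In DENR KO cells it was −0.0636 as deposited. The sterol minus fatty acid difference of this ratio in control cells was 0.2528 with Lpin1 added, and from 0.1316 to 0.2272 with 1 library left out. In DENR KO cells it ran from −0.0044 to 0.1797. The same difference for the effect of DENR KO ran from −0.1115 (without DENR KO replicate 2) to −0.0252 with IFNγ and from −0.0503 to 0.0548 untreated, where it was 0.0549 with means in place of medians. The causes were not tested.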
